A study of Mus musculus with 9 samples.

Results

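The 10 genes described here encode matrix metalloproteinases (*Mmp2*, *Mmp12*, *Mmp13*, *Mmp14*, and *Mmp19*), the membrane proteases *Adam8* and *Adam17*, and the tissue inhibitors *Timp1*, *Timp2*, and *Timp3*. They were chosen by symbol, as 10 of the 50559 genes listed in the count tables, and all 10 were among the 16618 genes with enough counts to be tested. RNA came from CD45+CD11b+ cells sorted from the quadriceps of *mdx* mice, which lack dystrophin and are a model of Duchenne muscular dystrophy, at an age of 4.5 weeks. All groups carried the *mdx* mutation, and no healthy strain was sequenced here. For 7 days the mice received vehicle, spironolactone (an antagonist of the mineralocorticoid receptor), or prednisolone (a glucocorticoid). Each group had 3 libraries, each made from the pooled cells of 3 mice, so that the spread reported is between pools and not between single animals. The pools held mice of both sexes across each group.

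Matrix metalloproteinases are zinc enzymes that cut collagens, elastin, laminins, and other proteins of the extracellular matrix. They are made as inactive precursors, and the tissue inhibitors of metalloproteinases (TIMPs) block their active sites. ADAM proteases sit in the cell membrane and release the outer parts of cytokines and receptors, and macrophages that enter injured muscle are a known source of several of these enzymes.

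The proteases share a zinc-binding site in which 3 histidines hold the metal (His-Glu-x-x-His-x-x-Gly-x-x-His, with x for any residue). The coding sequence of this site is shown to identify the enzymes, 5′ to 3′ on the coding strand, from the canonical GENCODE transcripts on GRCm39, with the 3 histidine codons in capitals.
Mmp2: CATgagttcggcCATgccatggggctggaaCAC
Mmp12: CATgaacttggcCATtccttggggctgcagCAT
Mmp13: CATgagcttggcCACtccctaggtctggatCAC
Mmp14: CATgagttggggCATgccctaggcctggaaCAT
Mmp19: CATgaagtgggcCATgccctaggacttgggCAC
Adam8: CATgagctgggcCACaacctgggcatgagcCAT
Adam17: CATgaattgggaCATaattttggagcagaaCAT
The site occurred 1 time in each protein. Over its 33 bases, the matrix metalloproteinases shared 23 to 27 bases with each other, the most alike being *Mmp2* and *Mmp14* (27 of 33), and the lowest identity among the 7 proteases was 17 of 33 (*Mmp13* and *Adam17*).

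TIMPs instead carry, at the start of the mature protein, a Cys-x-Cys motif that enters the active site of the enzyme. The first 27 coding bases of the mature proteins are shown with the codons of both cysteines in capitals.
Timp1: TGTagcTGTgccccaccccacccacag
Timp2: TGCagcTGCtccccggtgcacccgcaa
Timp3: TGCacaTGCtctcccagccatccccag
These stretches shared 16 to 18 of 27 bases.

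Libraries had 31469815 to 32943512 counts on genes, and levels are given as CPM, counts scaled to the library size, after TMM normalization. The 10 myeloid markers fixed as a list were all detected in every library, with summed levels of 16827 to 19441 CPM with vehicle, 16977 to 18810 CPM with spironolactone, and 18622 to 19830 CPM with prednisolone. Each such sum weighs its highest markers most, as with *Lyz2* at 11072 of 19441 CPM in vehicle replicate 2. Markers of other cell types were also present and differed between libraries. Neutrophil markers summed to 730 to 3616 CPM with vehicle, 1189 to 2607 CPM with spironolactone, and 835 to 1067 CPM with prednisolone, the vehicle maximum being replicate 3 alone (730 and 1068 CPM in the others).

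Levels between genes were compared per transcript length, as TPM, which scales counts by length and then by library. In vehicle-treated cells the order was *Adam8* (784 ± 101 TPM, mean ± SD, n = 3), *Timp2* (423 ± 84.5), *Mmp12* (349 ± 21.5), *Mmp19* (211 ± 12.7), *Mmp14* (123 ± 23.3), *Adam17* (98.1 ± 7.39), *Timp1* (37.3 ± 9.89), *Mmp13* (36.4 ± 5.65), *Mmp2* (13.3 ± 2.03), and *Timp3* (3.92 ± 0.208). The means of *Timp2* and *Mmp12* lay within 1 SD of *Timp2*, and those of *Timp1* and *Mmp13* within 1 SD of either, so that these neighbours did not differ beyond their spread. When the length of the canonical transcript replaced that of all exons, *Mmp12* (401 TPM) stood above *Timp2* (288 TPM) and *Mmp14* (156 TPM) above *Mmp19* (124 TPM). *Timp1* (44.6 ± 11.7 TPM) and *Mmp13* (20.8 ± 3.27 TPM) then differed by more than 1 SD of either.

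**Figure D1:**
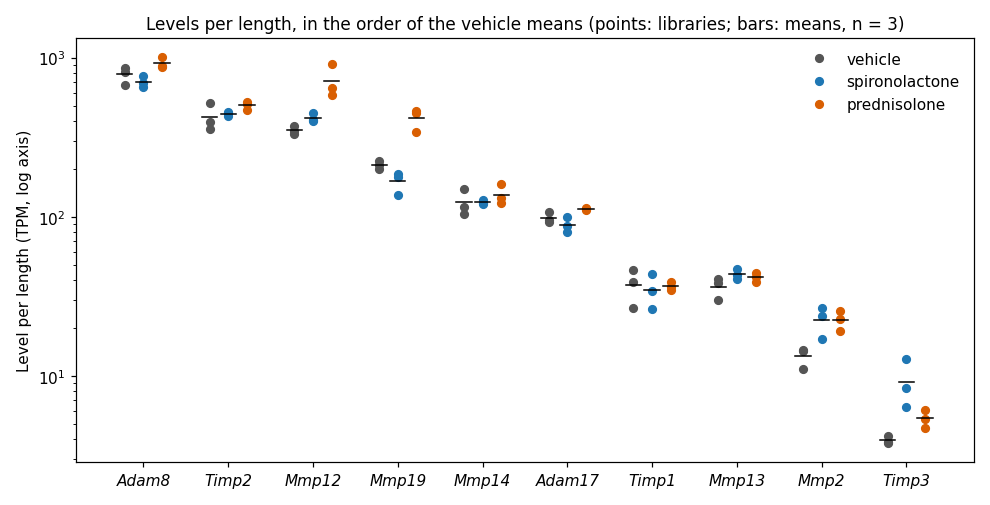
Level per length of each gene in TPM on a log axis, ordered by the vehicle mean. Points are libraries colored by treatment (n = 3 per group) and black bars are means. *Adam8*, *Timp2*, and *Mmp12* stand highest and *Timp3* lowest.

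The metalloproteinases *Mmp12* and *Mmp19* were higher with prednisolone than with vehicle, and the other 8 genes did not pass the test. Of the 10 genes, 2 were called higher and 0 lower at an adjusted *P* under 0.05 (quasi-likelihood test of edgeR, Benjamini-Hochberg over all genes tested), where 1.76% of all genes were called. DESeq2 called 3, adding *Mmp2*, and 4.64% of all genes it tested. At an unadjusted *P* under 0.05 were 3 of the 10 genes and 14.2% of all genes. The groups did not overlap for 5 of the 10 genes, against 19.7% of all genes. The median log2 fold change of the 10 genes was 0.16, and that of all genes −0.01. In cells sorted in bulk, a change in the share of a cell type and a change in RNA per cell cannot be told apart. Of 10 neutrophil markers, 8 had a negative log2 fold change in this comparison (median −1.48). At an unadjusted *P* under 0.05 were 3 of the 10, with 0 called by edgeR and 1 by DESeq2. Their summed level was 3616 CPM in vehicle replicate 3. Vehicle replicates 1 and 2, at 730 and 1068 CPM, overlapped with prednisolone (835 to 1067 CPM). Without vehicle replicate 3, the library with the highest neutrophil sum, the log2 fold change of *Mmp12* was 0.93 (adjusted *P* = 0.0162) and that of *Mmp19* 0.92 (adjusted *P* = 0.0167).

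Spironolactone against vehicle gave no call among the 10 genes, where 0.0181% of all genes were called (3 genes, with 1543 at an unadjusted *P* under 0.05). Of the 10 genes, 4 had an unadjusted *P* under 0.05, against 9.29% of all genes. DESeq2 called 2 of the 10, *Mmp2* and *Timp3*, against 1.67% of all genes it tested (266 genes). The groups did not overlap for 3 of the 10 genes, against 13.5% of all genes. Both comparisons with vehicle use the same vehicle libraries and are not independent of each other.

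Compared directly, spironolactone-treated cells had less *Mmp12* and *Mmp19* and more *Timp3* than prednisolone-treated cells. These 3 of 10 genes were called, 1 higher and 2 lower, where 5.17% of all genes were called. DESeq2 called 3 of the 10 and 10% of all genes it tested, and 5 of the 10 were at an unadjusted *P* under 0.05, against 22.5% of all genes. The groups did not overlap for 5 of the 10 genes, against 30.3% of all genes.

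**Figure D2:**
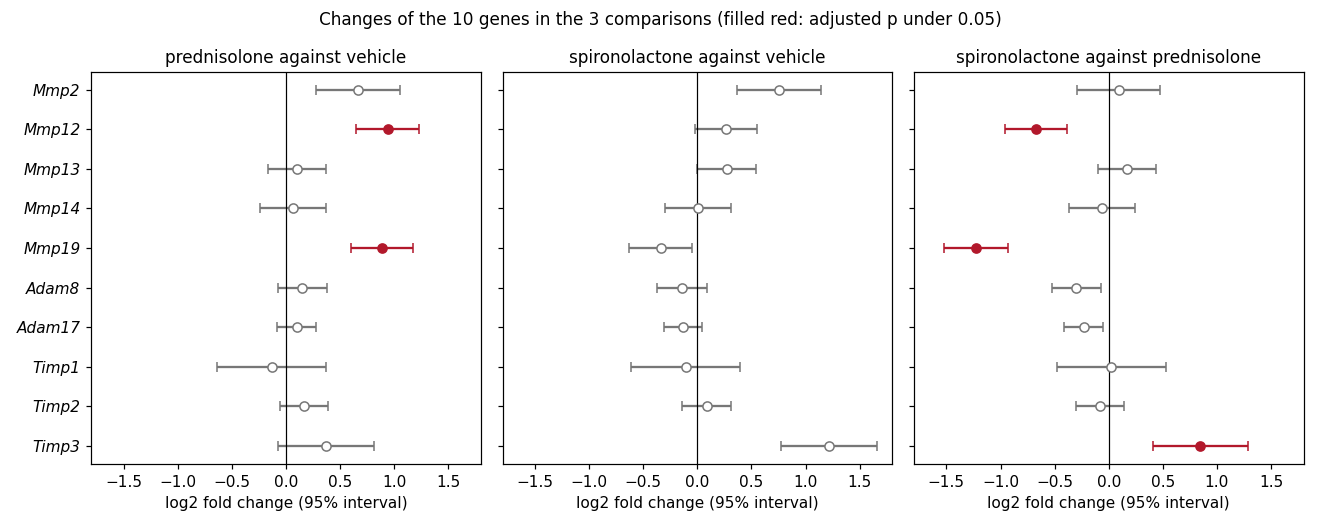
Log2 fold change of each gene in the 3 comparisons, with 95% intervals from the fit to 9 libraries. Filled red points have an adjusted p under 0.05: *Mmp12* and *Mmp19* with prednisolone against vehicle, and *Mmp12*, *Mmp19*, and *Timp3* with spironolactone against prednisolone.

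*Mmp12*, macrophage metalloelastase (GRCm39 chr9:7344381-7369499, plus strand), was measured at 577, 580, and 560 CPM with vehicle, 636, 663, and 767 CPM with spironolactone, and 925, 1374, and 997 CPM with prednisolone. All prednisolone libraries lay above all others, and the second was the highest. The prednisolone group was 1.92-fold above vehicle (log2 fold change 0.94 ± 0.13, SE; adjusted *P* = 0.00376), and the call held when any single library was left out (adjusted *P* between 0.00394 and 0.0172). The spironolactone libraries also lay above the vehicle libraries, by a log2 fold change of 0.27 ± 0.13 that did not pass the test (adjusted *P* = 0.578). Spironolactone against prednisolone gave −0.67 ± 0.13 (adjusted *P* = 0.0129). That call was lost without spironolactone replicate 2 (adjusted *P* = 0.0556) and without prednisolone replicate 2 (adjusted *P* = 0.0554).

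*Mmp19*, a metalloproteinase of basement membrane components (chr10:128626773-128636695, plus strand), was at 150, 184, and 176 CPM with vehicle, 138, 151, and 114 CPM with spironolactone, and 346, 341, and 256 CPM with prednisolone. Prednisolone libraries were again all above the rest, whereas the vehicle and spironolactone libraries overlapped. The log2 fold change with prednisolone was 0.89 ± 0.13 (1.85-fold, adjusted *P* = 0.00553), and it was called with each library left out in turn. With spironolactone it was −0.34 ± 0.13 against vehicle (adjusted *P* = 0.451). The direct comparison gave −1.23 ± 0.14 (adjusted *P* = 0.000414) and was called under every alternative and with any library left out.

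Over the 9 libraries the log2 CPM of *Mmp12* and *Mmp19* had a Pearson correlation of 0.744, which became −0.03 for deviations from the group means. The libraries share treatments, so this describes the group pattern and not a relation within groups. Among 10214 genes at 5 CPM or more, those most like *Mmp12* included *Pclaf* (r = 0.951) and *Mad2l1* (0.949), and those most like *Mmp19* were *Tmem43* (0.990), *Pde8a* (0.980), and *Traf3* (0.979).

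The region before the start site is shown for the 3 genes in which a script found the AP-1 motif TGANTCA (both strands searched) in the 250 bases before the start of the canonical transcript. The 60 bases next to the start are printed 5′ to 3′ on the plus strand of GRCm39, with the motif in capitals, and for *Mmp13* also TATAAA.
Mmp12, chr9:7347314-7347373: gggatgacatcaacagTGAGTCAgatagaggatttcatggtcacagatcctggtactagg
Mmp13, chr9:7272454-7272513: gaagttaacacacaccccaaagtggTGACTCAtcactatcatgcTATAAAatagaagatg
Mmp19, chr10:128626713-128626772: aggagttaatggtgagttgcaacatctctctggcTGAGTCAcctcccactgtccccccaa
The motif began 44 bases before the start in *Mmp12*, 35 in *Mmp13*, and 26 in *Mmp19*, and 6.17% of 21751 such regions of protein-coding genes held it. TATAAA, searched on the given strand, was in 8.03% of regions. GGGCGG, searched on both strands, was found before *Mmp2*, *Adam8*, and *Adam17* and in 36.3% of regions. The full palindromic glucocorticoid response element was found before none of the 10 genes and in 0 of 21751 regions. Its core TGTTCT, searched on both strands, was found before none of the 10 and in 14.3% of regions, which says only that these letters are not in these windows. These matches describe the sequence only.

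*Mmp13*, collagenase 3 (chr9:7272514-7283331), lies near *Mmp12* on the same chromosome. It was at 21.9, 18.6, and 25.6 CPM with vehicle, 23.5, 26.6, and 29.5 CPM with spironolactone, and 22.6, 23.3, and 25.1 CPM with prednisolone. All 3 groups overlapped. Prednisolone against vehicle gave 0.10 ± 0.13 (adjusted *P* = 0.780) and spironolactone 0.27 ± 0.13 (adjusted *P* = 0.538).

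*Mmp14*, a membrane-type metalloproteinase that activates the precursor of MMP2 (chr14:54668878-54682821), was at 153, 149, and 215 CPM with vehicle, 164, 182, and 174 CPM with spironolactone, and 176, 156, and 209 CPM with prednisolone. The groups overlapped in all comparisons. Log2 fold changes were 0.07 ± 0.14 with prednisolone, with an adjusted *P* of 0.883, and 0.01 ± 0.14 with spironolactone, with an adjusted *P* of 0.994.

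*Mmp2*, gelatinase A (chr8:93553902-93580049, plus strand), was at 8.27, 11.7, and 12.1 CPM with vehicle, 20.4, 13.9, and 19.9 CPM with spironolactone, and 17.4, 18.95, and 14.4 CPM with prednisolone. Every treated library lay above every vehicle library, and both treated groups overlapped. Prednisolone against vehicle gave 0.66 ± 0.18 on the log2 scale (adjusted *P* = 0.0884). Spironolactone gave 0.76 ± 0.18 (adjusted *P* = 0.161), so that neither drug passed the test. Both passed in edgeR without the filter on low counts, with adjusted *P* values of 0.000356 and 7.21e-05, and in DESeq2, with 0.0172 and 0.0128. Without the filter many more genes were called in both comparisons, and DESeq2 called 4.64% and 1.67% of all genes it tested. The difference between the drugs was 0.09, with a 95% interval from −0.29 to 0.47.

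*Adam8*, a membrane protease of leukocytes (chr7:139558845-139572475, minus strand), was at 858, 722, and 886 CPM with vehicle, 773, 697, and 759 CPM with spironolactone, and 1019.7, 864, and 858 CPM with prednisolone. The drug groups did not overlap with each other, whereas each overlapped with vehicle. Against vehicle, prednisolone gave 0.15 ± 0.11 (adjusted *P* = 0.574) and spironolactone −0.15 ± 0.11 (adjusted *P* = 0.733). Spironolactone against prednisolone gave −0.30 ± 0.11, which did not pass the test (adjusted *P* = 0.118).

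*Adam17*, the protease that releases tumor necrosis factor from the cell surface (chr12:21373510-21423672, minus strand), was at 195, 188, and 186 CPM with vehicle, 186, 171, and 162 CPM with spironolactone, and 205, 200, and 205 CPM with prednisolone. Prednisolone libraries lay above those of both other groups. Prednisolone against vehicle gave 0.10 ± 0.08 (adjusted *P* = 0.651) and spironolactone −0.13 ± 0.08 (adjusted *P* = 0.673). No comparison passed the test, the widest difference being −0.23 ± 0.08 between spironolactone and prednisolone (adjusted *P* = 0.115).

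**Figure D3:**
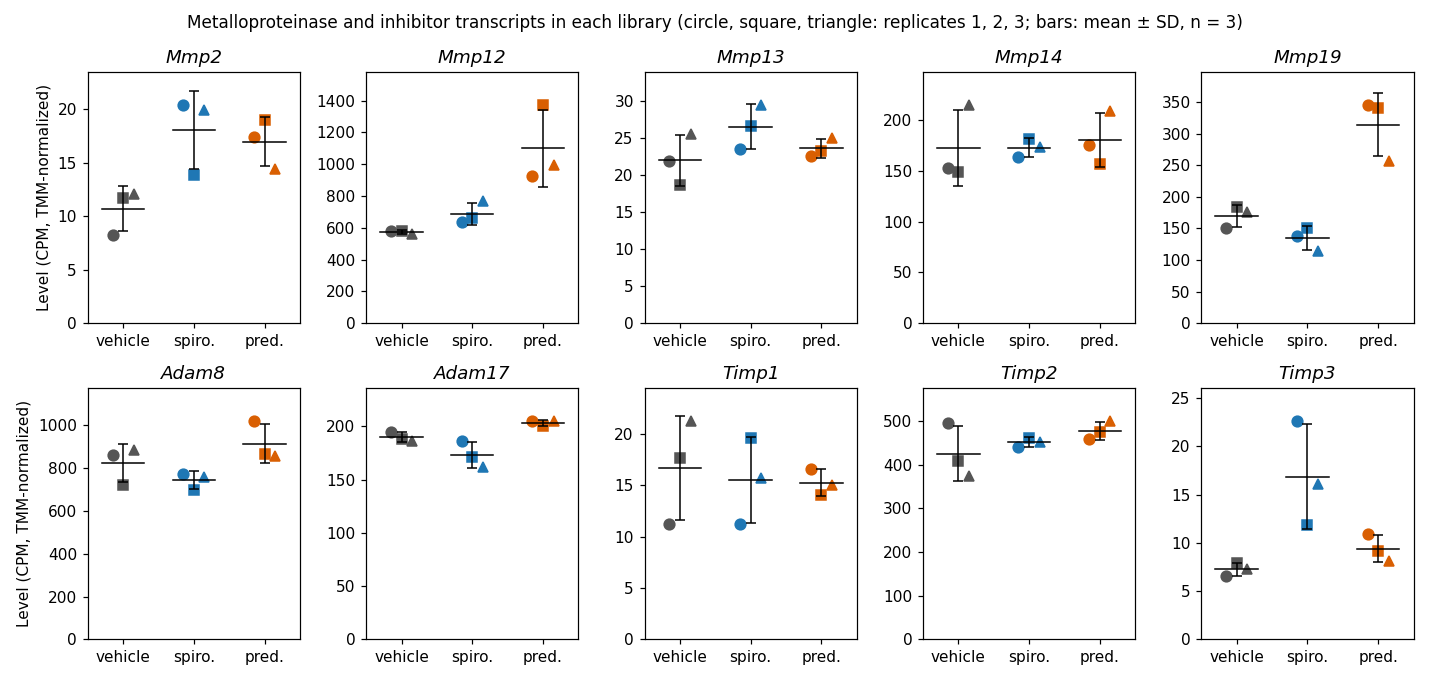
Level of each gene in CPM in every library, with replicates 1, 2, and 3 of each group as circle, square, and triangle and bars for mean ± SD (n = 3). Each axis starts at 0. Prednisolone libraries stand above the others for *Mmp12*, *Mmp19*, and, by less, *Adam17*, and spironolactone libraries for *Timp3*.

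*Timp3*, an inhibitor bound to the matrix that also blocks ADAM17 (chr10:86136236-86185371, plus strand), was at 6.57, 7.86, and 7.32 CPM with vehicle, 22.6, 11.9, and 16.1 CPM with spironolactone, and 10.9, 9.17, and 8.11 CPM with prednisolone. These levels rest on 216 to 715 counts per library. The 3 groups did not overlap, with spironolactone highest and its first replicate at the top. Spironolactone was 2.33-fold above vehicle (log2 fold change 1.22 ± 0.21), which missed the threshold in edgeR (adjusted *P* = 0.0655). It passed in edgeR without the filter on low counts (adjusted *P* = 2.11e-10) and in DESeq2 (adjusted *P* = 2.65e-05). Without the filter many more genes were called across the data, and DESeq2 called 1.67% of all genes it tested. Prednisolone against vehicle gave 0.37 ± 0.21 (adjusted *P* = 0.456). Spironolactone was higher than prednisolone by 0.85 ± 0.20 (adjusted *P* = 0.0312). That call was lost in 5 of 9 fits that left out 1 library, with adjusted *P* values of 0.0850 and 0.0828 without spironolactone replicates 1 and 3, and of 0.0620, 0.113, and 0.113 without prednisolone replicates 1, 2, and 3.

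Endothelial markers, and to a lower degree those of other cells, moved with *Timp3*. The 10 endothelial markers, all detected in every library, summed to 109 to 156 CPM with vehicle, 214 to 308 CPM with spironolactone, and 135 to 174 CPM with prednisolone. With spironolactone against vehicle all 10 had a positive log2 fold change (median 1.21) and 0 were called by edgeR, with 9 at an unadjusted *P* under 0.05, against 9.29% of all genes. DESeq2 called 6 of the 10 higher in that comparison, against 1.67% of all genes it tested. Against prednisolone edgeR called 5 of 10 higher, where it called 5.17% of all genes, and DESeq2 called 7, against 10%. Over the 9 libraries *Timp3* and the endothelial sum had a Pearson correlation of 0.953, and of 0.851 for deviations from group means. The correlation was 0.808 with fibro-adipogenic, 0.773 with skeletal muscle, and 0.721 with mural markers (0.807 without *Cspg4*). For deviations from group means these were 0.623, 0.359, and 0.691 (0.538 without *Cspg4*). With spironolactone against vehicle, 8 of 12 fibro-adipogenic and 6 of 7 tested skeletal muscle markers had an unadjusted *P* under 0.05 (9.29% of all genes), and edgeR called 0 of either. DESeq2 called 2 fibro-adipogenic and 5 skeletal muscle markers higher, against 1.67% of all genes it tested. The genes most like *Timp3* were *Epas1* (r = 0.963), *Caskin2* (0.963), and *Col4a2* (0.962). The part of RNA from these cells in the level of *Timp3* was not tested.

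*Mmp2* also moved with markers of other cells. Its correlation was 0.762 with the sum of 12 fibro-adipogenic markers (682 to 977 CPM with vehicle, 906 to 1314 CPM with spironolactone, 866 to 966 CPM with prednisolone). It was 0.925 with 8 mural markers (65.8 to 112, 113 to 158, and 119 to 139 CPM in the same order) and 0.903 with skeletal muscle markers (191 to 293, 361 to 611, and 296 to 443 CPM, with at most 1 of 8 markers at 0 in a library). With the endothelial sum it was 0.70. For deviations from group means these correlations were 0.841 for fibro-adipogenic, 0.804 for mural, 0.865 for skeletal muscle, and 0.784 for endothelial markers. Few genes make up most of some sums. In vehicle replicate 2, *Col1a1*, *Col1a2*, and *Col3a1* were at 307, 209, and 309 CPM of the fibro-adipogenic 977 CPM. *Acta1* was at 156 CPM of the skeletal muscle 293 CPM there. The mural sum includes *Cspg4*, itself 22.8 CPM with vehicle and 67.4 CPM with prednisolone (log2 fold change 1.56 ± 0.16, adjusted *P* = 0.000495). Without it the other 7 mural markers summed to 37.5 to 93.6 CPM with vehicle, 96.4 to 136 CPM with spironolactone, and 60.4 to 63.4 CPM with prednisolone, and the correlation with *Mmp2* was 0.626 (0.720 for deviations from group means). This sum was chosen after seeing the data, and in it the prednisolone libraries lay within the vehicle range. The part of RNA from these cells in the level of *Mmp2* was not tested. For *Mmp12* the correlations were 0.562 with myeloid, −0.303 with neutrophil, −0.162 with endothelial, 0.0179 with fibro-adipogenic, 0.524 with mural, 0.381 with skeletal muscle, −0.0461 with satellite cell, and −0.523 with tendon and glia markers. For *Mmp19* they were 0.707, −0.402, −0.460, −0.384, 0.249, −0.147, −0.186, and −0.740 in the same order. For deviations from group means the values for *Mmp12* were 0.223, 0.139, −0.338, 0.123, 0.0837, 0.623, 0.213, and −0.0629, and those for *Mmp19* were 0.432, 0.0868, 0.444, −0.131, 0.443, 0.105, −0.424, and 0.248. Several signs thus differed between the group pattern and the spread within groups.

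**Figure D4:**
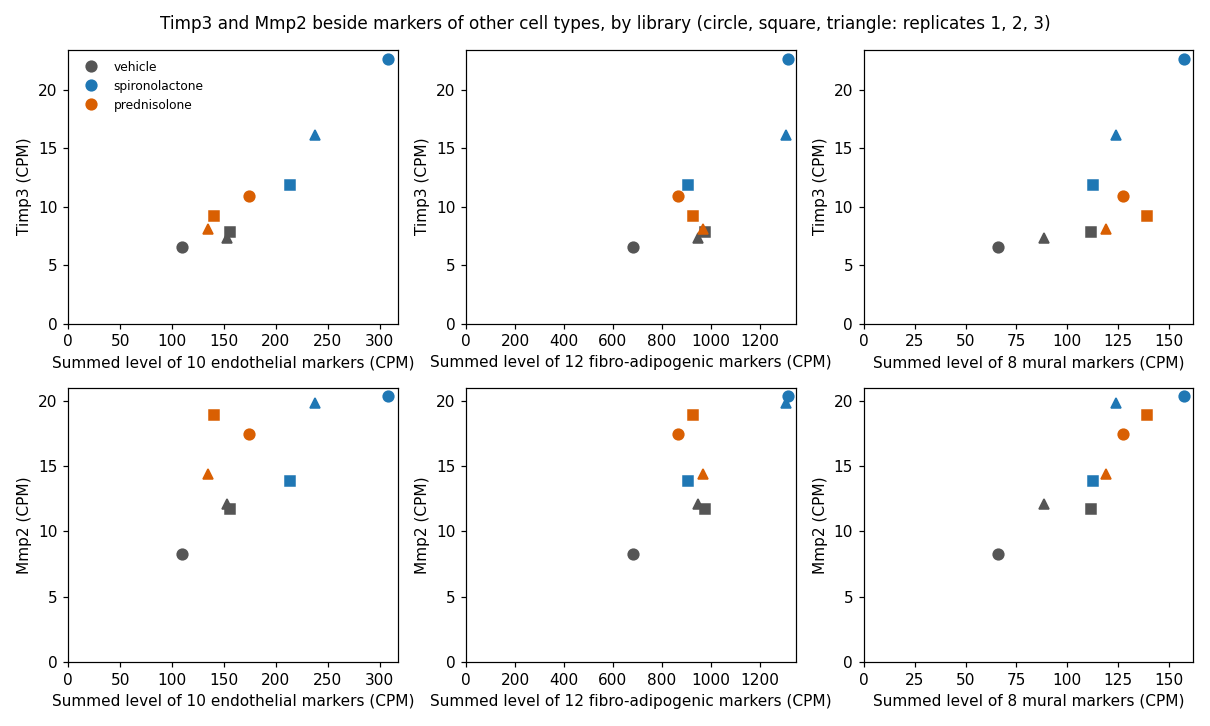
Level of *Timp3* (top) and *Mmp2* (bottom) in CPM against the summed CPM of endothelial, fibro-adipogenic, and mural markers, by library. Colors are treatments and symbols are replicates. The spironolactone libraries have the highest endothelial sums, 214 to 308 CPM, and the highest *Timp3*.

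*Timp2*, the most abundant inhibitor (chr11:118191887-118246566, minus strand), was at 495, 408, and 373 CPM with vehicle, 440.5, 461, and 453 CPM with spironolactone, and 458, 474, and 500.1 CPM with prednisolone. The groups overlapped, with log2 fold changes of 0.17 ± 0.10 with prednisolone and 0.09 ± 0.10 with spironolactone (adjusted *P* = 0.522 and 0.873). *Timp1* (chrX:20736316-20740976), an inhibitor induced by inflammation in many tissues, was at 11.2, 17.6, and 21.3 CPM with vehicle, 11.3, 19.6, and 15.7 CPM with spironolactone, and 16.6, 14.1, and 15.1 CPM with prednisolone. Its log2 fold changes against vehicle were −0.13 ± 0.23 and −0.11 ± 0.23 (adjusted *P* = 0.861 and 0.940).

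Reads of overlapping genes could be split by the counting, whose strand setting is not given in the sources used here. On the opposite strand *Syn1* overlaps *Timp1* (11.3, 11.3, and 18.0 CPM in vehicle, spironolactone, and prednisolone means), *Iah1* overlaps *Adam17* (27.0 to 29.1 CPM), and *Tmem198b* overlaps *Mmp19* (15.4 to 18.7 CPM). Exons overlap for *Iah1* and *Tmem198b*, so that the values of *Adam17* and *Mmp19* are uncertain to the extent that reads of these genes were shared. Exons also overlap for *Mmp12* and *Mmp1b* (at most 16 counts in a library), *Adam8* and *Gm16201* (80), *Timp3* and *Syn3* (12), and, on the same strand, *Timp2* and *Cep295nl* (103). The exons of *Syn1* and *Timp1* do not overlap.

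As a description of balance, the summed TPM of the 5 metalloproteinases was set against that of the 3 inhibitors. The ratio was 1.34, 1.64, and 1.83 with vehicle, 1.57, 1.55, and 1.64 with spironolactone, and 2.38, 2.84, and 2.13 with prednisolone. Prednisolone libraries did not overlap with the others in this ratio. The sum leaves out *Mmp8* (87.7 to 303 TPM with vehicle, 120 to 205 with spironolactone, and 158 to 226 with prednisolone). It also leaves out *Mmp9* (80.5 to 222, 92.0 to 133, and 91.8 to 118 TPM in the same order). A ratio with these genes was not computed, so the gap describes this choice of genes only. *Timp2* made up 87.7% to 94.4% of the inhibitor TPM, so the ratio mostly compares *Mmp12* and other metalloproteinases with 1 inhibitor.

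Over 7 lists of other genes of the pathway, 78 genes were tested. With prednisolone against vehicle edgeR called 1 of them (1.28%, against 1.76% of all genes) and DESeq2 6, against 4.64% of all genes. With spironolactone against vehicle edgeR called 0, against 0.0181% of all genes, and DESeq2 14, against 1.67%. Between the drugs edgeR called 10 (12.8%, against 5.17% of all genes) and DESeq2 16, against 10%. Of 10 other metalloproteinase genes tested, 0 were called against vehicle with either drug by edgeR (1 at an unadjusted *P* under 0.05 in each comparison, against 14.2% and 9.29% of all genes) and 1 in each by DESeq2 (4.64% and 1.67% of all genes). Between the drugs 2 were higher with spironolactone than with prednisolone. These were *Mmp15* (8.63 against 3.61 CPM, log2 fold change 1.25 ± 0.23, adjusted *P* = 0.00828) and *Mmp27* (11.5 against 5.66 CPM, 1.02 ± 0.22, adjusted *P* = 0.0203). *Mmp8* and *Mmp9*, the neutrophil collagenase and gelatinase B, had the highest TPM of this list (170.2 and 119) and standard errors of 0.51 and 0.40, and neither passed in any comparison.

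Among 7 other ADAM genes, of which *Adam15*, *Adam9*, and *Adam10* had the highest TPM (246, 160.1, and 139.9), edgeR called 0 in any comparison (0, 1, and 3 at an unadjusted *P* under 0.05, against 14.2%, 9.29%, and 22.5% of all genes) and DESeq2 2, both between the drugs, against 10% of all genes. *Adam10*, another protease that sheds membrane proteins, gave −0.33 ± 0.09 for spironolactone against prednisolone (adjusted *P* = 0.0539). Of 13 ADAMTS genes, *Adamts1* was the only call of edgeR, higher with spironolactone than with prednisolone (0.96 ± 0.21, adjusted *P* = 0.0201). Between the drugs edgeR called 5.17% of all genes. DESeq2 called 1 ADAMTS gene higher there, against 10% of all genes. Against vehicle, spironolactone gave a positive log2 fold change for 10 of 13 (median 0.53), 4 were at an unadjusted *P* under 0.05 (9.29% of all genes), and DESeq2 called 2 higher (1.67% of all genes). The endothelial, fibro-adipogenic, and skeletal muscle markers moved with these genes, with median log2 fold changes of 1.21, 0.54, and 0.94 in the same comparison, and their part was not tested. *Adamts10* and *Adamts4* were not called by edgeR. None of 6 other inhibitors, among them *Serpinb2* and *Serpine2*, was called by edgeR (2, 1, and 0 at an unadjusted *P* under 0.05, against 14.2%, 9.29%, and 22.5% of all genes), and DESeq2 called 1, with spironolactone against vehicle, against 1.67% of all genes. *Timp4*, the remaining TIMP, named after its values were seen, had 33, 36, and 32 counts with vehicle, 196, 71, and 91 with spironolactone, and 102, 68, and 43 with prednisolone. Every treated library lay above the vehicle libraries, also in CPM. The log2 fold change was 1.85 ± 0.41 for spironolactone against vehicle (adjusted *P* = 0.129) and 1.04 ± 0.41 for prednisolone (adjusted *P* = 0.259).

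Another list held 12 tested genes, with activators of metalloproteinases, regulators of ADAM17, and others such as *Thbs1* and *Lrp1*. Of these, *Cd44*, a hyaluronan receptor that can hold MMP9 at the cell surface, was lower with spironolactone than with prednisolone. *Cd44* was at 726 against 1082 CPM (−0.58 ± 0.11, adjusted *P* = 0.0122). It was the only call of edgeR in this list, where 5.17% of all genes were called between the drugs. *Thbs1* gave −0.83 ± 0.13 for spironolactone against vehicle, just outside the threshold (adjusted *P* = 0.0542), and *Lrp1*, a receptor that clears proteases, passed in no comparison in edgeR. DESeq2 called 1 gene of this list lower with prednisolone against vehicle, where it called 4.64% of all genes it tested. It called 1 lower with spironolactone against vehicle (1.67% of all genes) and 2 lower with spironolactone than with prednisolone (10%). Of 16 ADAM17 substrates, *Trem2* was higher with spironolactone than with prednisolone (0.34 ± 0.09, adjusted *P* = 0.0483) and *Cd163*, the hemoglobin scavenger receptor, was lower (−0.92 ± 0.23, adjusted *P* = 0.0448). In that comparison edgeR called 5.17% of all genes. *Csf1r* and *Tnfrsf1b* passed in no comparison in edgeR. DESeq2 called 1 substrate higher with prednisolone against vehicle (4.64% of all genes) and 1 lower with spironolactone against vehicle (1.67%). Between the drugs it called 2 higher and 1 lower, against 10% of all genes.

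Of 14 matrix substrates, *Lamc1*, a laminin chain, was the only call of edgeR with prednisolone against vehicle (0.46 ± 0.10, adjusted *P* = 0.0325). In that comparison edgeR called 1.76% of all genes. DESeq2 called 3 of the list higher, against 4.64% of all genes it tested. With prednisolone against vehicle, 13 of 14 had a positive log2 fold change (median 0.32), 6 at an unadjusted *P* under 0.05 (14.2% of all genes). Marker medians there were 0.07 for fibro-adipogenic, 0.10 for endothelial, and 0.49 for skeletal muscle cells. With spironolactone against vehicle, 11 of 14 had a positive log2 fold change (median 0.62). In that comparison edgeR called 0, with 9 at an unadjusted *P* under 0.05 (9.29% of all genes), and DESeq2 called 7 higher and 1 lower (1.67% of all genes). Markers of other cells moved with it, with a positive log2 fold change for 12 of 12 fibro-adipogenic markers (median 0.54). The same held for 10 of 10 endothelial (median 1.21) and 7 of 7 tested skeletal muscle markers (median 0.94). *Col1a1*, *Col1a2*, *Col3a1*, and *Dcn* are both matrix substrates and fibro-adipogenic markers here, so their changes count in both lists. The part of these cells in the list of matrix substrates was not tested. Between spironolactone and prednisolone, *Fn1* (fibronectin, −1.12 ± 0.16, adjusted *P* = 0.00254), *Spp1* (osteopontin, −0.69 ± 0.16, adjusted *P* = 0.0274), and *Lamc1* (−0.46 ± 0.10, adjusted *P* = 0.0195) were lower with spironolactone. *Col4a1*, a basement membrane collagen, was higher (0.90 ± 0.20, adjusted *P* = 0.0346), and *Col1a1* passed in no comparison. Between the drugs edgeR thus called 1 of the list higher and 3 lower, where 5.17% of all genes were called. DESeq2 called 3 higher and 3 lower, against 10%.

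**Figure D5:**
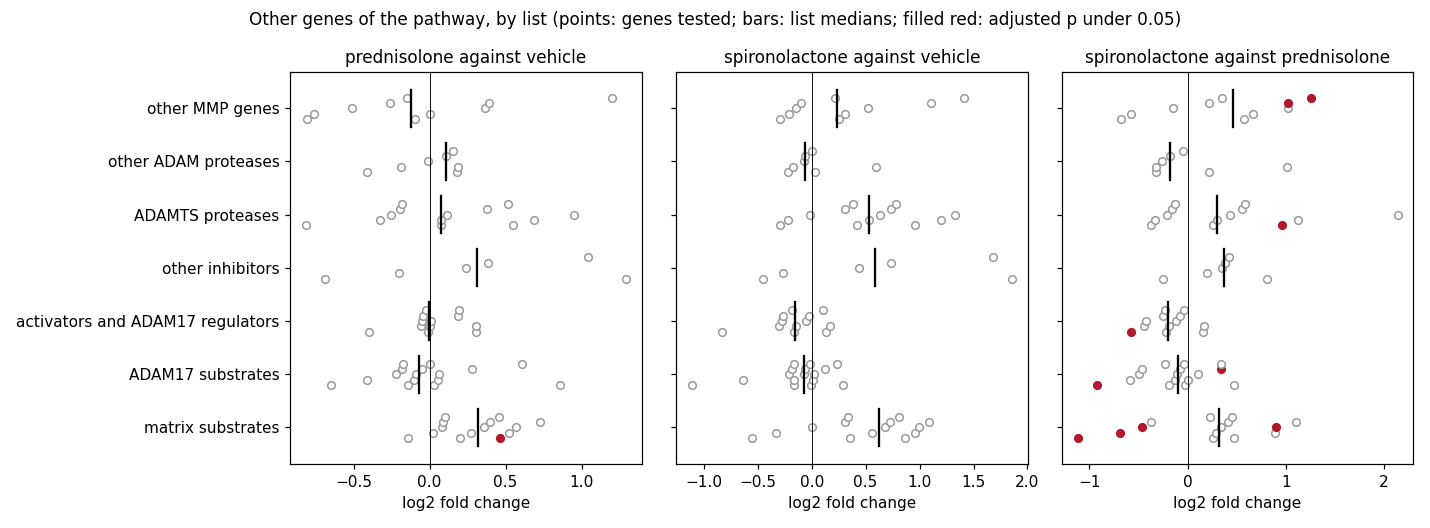
Log2 fold changes of the tested genes of 7 related lists in the 3 comparisons. Points are genes, black bars are list medians, and filled red points have an adjusted p under 0.05. Calls are 1 with prednisolone against vehicle, 0 with spironolactone against vehicle, and 10 between the drugs.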

How the data were processed

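RNA-Seq of 9 pooled libraries (3 per group) was analysed. The deposited count values were made by the authors by alignment to mm39 and counting per gene, and are whole numbers without normalization. The submitters' processing notes name HISAT2 2.2.1, HTSeq 0.11.3, and DESeq2 1.32.0. The authors' comparison tables (fold changes and p-values) were not used. Lines naming no gene (17.2% to 21.8% of a library) were left out.

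Counts were tested with edgeR 4.0.16 (R 4.3.3; filterByExpr, minimum count 10; TMM; quasi-likelihood F test, two-sided, all 9 libraries in one fit), with Benjamini-Hochberg adjustment over 16618 genes and a threshold of 0.05. TPM used exon lengths of GENCODE genes (40303 of 50559 symbols). The scripts were tested on simulated data. Alternatives were DESeq2 1.42.0, another scaling, no filter, a fit of 2 groups, a replicate block, and leaving out each library.

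All 10 genes were described. Of the related lists, genes with an adjusted *P* under 0.05 in any comparison and the 3 highest by TPM were named, and for each called gene the 3 most like it by correlation, apart from items that are not reported here. The members and lists were chosen with earlier results of these data known. Nothing states a sequencing batch.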

Additional observations from a re-analysis of the deposited data

How the results depend on the processing

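With prednisolone against vehicle, 293 genes were called, with 684 under DESeq2, 1019 without the filter, and 69 to 826 when 1 library was left out. With spironolactone against vehicle, 3 were called, with 266 under DESeq2, 528 without the filter, and 0 to 34 with a library left out. Between the drugs 859 were called, with 1595 under DESeq2, 1598 with only both groups fitted, 1940 without the filter, and 232 to 1898 with a library left out. Of the 10 genes, 2 were called with prednisolone in every fit without 1 library, and 3 under DESeq2 and without the filter, which added *Mmp2*. With spironolactone against vehicle 0 were called, 2 under DESeq2 and without the filter, and 0 to 1 with a library left out (*Timp3*, without spironolactone replicate 2). Between the drugs 3 were called, and 1 to 3 with a library left out, with 1 without prednisolone replicate 2.

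Whether replicate numbers pair the libraries is not stated. Correlations of deviations from group means ran from −0.04 to 0.151 for same-numbered libraries and from −0.168 to 0.0440 for differently numbered ones. With spironolactone against vehicle, same-numbered libraries gave 0.117, 0.00484, and 0.151. A pairing was not tested. With a replicate block, 336, 8, and 1082 genes and 2, 0, and 3 of the 10 were called in the same order of comparisons.

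Directions turned only for small changes. *Mmp14* with spironolactone against vehicle was −0.0028 under DESeq2 and −0.0017 with its scaling, and *Timp1* between the drugs was −0.0199 with the replicate block. With 1 library left out, log2 fold changes ran with prednisolone from −0.0037 to 0.23 (*Mmp13*), −0.0511 to 0.262 (*Mmp14*), and −0.349 to 0.0859 (*Timp1*). With spironolactone they ran from −0.0891 to 0.193 (*Mmp14*), −0.327 to 0.102 (*Timp1*), and −0.0047 to 0.21 (*Timp2*). Between the drugs they ran from −0.0124 to 0.249 (*Mmp2*), −0.155 to 0.0565 (*Mmp14*), and −0.180 to 0.209 (*Timp1*). The causes were not tested. TPM with canonical lengths, the mural sum without *Cspg4*, and the DESeq2 calls of the lists were added after seeing the data. Depth limits *Timp3* most, at 216 counts in the lowest library.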
